A study of Mus musculus with 18 samples.

Results

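Mice carried a transgene for the microRNA miR-132 or miR-212 under control of the tetracycline transactivator (tTA), and the hippocampal effects of both transgenes were set side by side gene by gene. The tTA::miR132 mice were compared with their own nontransgenic controls over 2 libraries a group, and the tTA::miR212 mice with theirs over 3 libraries a group. Every fold change was computed from read counts within its own table, and the tables were joined by gene symbol. Of 10734 genes tested in the miR-132 table and 4618 in the miR-212 table, 4197 were tested in both, and these joined genes are described here. They rest on 10 of the 14 libraries in the deposited tables and on 12 of the 18 labelled samples. A further library of the tTA::miR132 group and of its control group was not analysed here.

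All animals are labelled C57BL/6, all RNA came from hippocampus, and no age is given in the labels. The controls of both lines are nontransgenic and lack tTA as well as the microRNA transgene, so an effect of tTA and one of the microRNA cannot be told apart. The promoter that drives tTA is not given in the sources used here. Each group's 3 replicates are pools made from the cDNA of 6 animals, so p-values measure the spread between pools. A further comparison of the series, CaMKII-Cre::miR-132/212f/f mice against their own nontransgenic controls (2 libraries a group in its table), deletes both microRNA genes in the cells that express the CaMKII-driven Cre recombinase. It is called the deletion and was used only to read the same genes in libraries that took no part in choosing them.

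MicroRNAs are short RNAs that guide Argonaute proteins to messenger RNAs, which are then degraded or translated less. Pairing of the target with the seed, the bases near the 5′ end of the microRNA, largely decides which messages are bound. miR-132 and miR-212 are made from neighbouring genes, are induced by neuronal activity through the transcription factor CREB, and are known in hippocampus for their effects on dendrites, spines and synaptic transmission.

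The mature sequences from RefSeq are shown because the shared seed is the reason to ask whether both transgenes lower the same messages. Capitals mark the seed, bases 2 to 8.
mmu-miR-132-3p: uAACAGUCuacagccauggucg
mmu-miR-212-3p: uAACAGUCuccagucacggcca
The seeds are identical, 17 of 22 positions hold the same base, and the first difference lies at position 10, counted from the 5′ end. The messenger RNA site that pairs with this seed reads GACTGTT, and followed by an A it is the 8mer site, GACTGTTA. The sites printed next lie in 3′ untranslated regions (3′ UTRs) of genes on which the results below turn, each with flanking bases in lower case and the 8mer in capitals, in mm9 coordinates and on the strand of the gene.
Psmc3 (chr2:90906421-90906450, plus strand): cattgtggactGACTGTTAttggttaagag
Eif2c3 (chr4:126012467-126012496, minus strand): gtaaccaatgtGACTGTTAaaaggtctccc
Gpr26 (chr7:139183522-139183551, plus strand): cagctggctaaGACTGTTAgtgacattttc
Sox5 (chr6:143781670-143781699, minus strand): tctcatacactGACTGTTAttttaactgtt
Psmc3 is the single gene with an 8mer among those higher in both lines and Eif2c3 the single one among those lower in both. Gpr26 passed an unadjusted p under 0.05 with a lower value in both lines. Sox5 is a target reported for these microRNAs.

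The microRNA genes themselves (Mir132 at chr11:74987167-74987267 and Mir212 at chr11:74986890-74986980, mm9, plus strand) had no counts among the genes analysed here, so the transgenes were not checked in the libraries. Total counts were 8301385 to 14772907 a library in the miR-132 table and 1299369 to 1544923 in the miR-212 table after 1 transcript was kept for each gene. The biological coefficient of variation between replicates was 60.7% in the miR-132 table and 8.58% in the miR-212 table, and the median standard error (SE) of a log2 fold change was 0.348 and 0.115. Markers of hippocampal cells, such as Prox1 of granule cells and Wfs1 of CA1, were present in both tables. In the miR-212 table, transgenic library 2 stood apart by choroid plexus markers summing to 47.3 CPM (counts scaled to a common library size) against 284 to 852 in the other 5 libraries, and by thalamus markers summing to 415 CPM against 165 to 248. These sums hold only 2 of 15 listed choroid plexus markers and 4 of 10 thalamus markers. Ttr alone measured 39.7 CPM of the choroid plexus sum in that library. Transgenic library 1 stood apart by immediate early genes summing to 4109 CPM against 1756 to 3021 in the others, and by Xist, the RNA of the inactive X chromosome in females, at 3.07 CPM. Xist measured 703 and 130 CPM in transgenic libraries 2 and 3 and 761, 1305 and 1363 in the controls, so all transgenic libraries lie below all controls. The sex makeup of the pools was not given in the labels, and its part in the miR-212 values was not tested. For the miR-132 line, no gene on chromosome X was analysed here.

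No joined gene passed an adjusted p under 0.05 in either line. With edgeR's quasi-likelihood test and Benjamini-Hochberg adjustment over each whole table, 0 of 10734 genes were called for miR-132 (0.0%) and 0 of 4618 for miR-212 (0.0%), where the smallest adjusted p was 0.187 (Camk2n1) and 0.415 (Ptprn2). An unadjusted p under 0.05 was reached by 303 and 260 genes, and DESeq2 called 39 and 0. Leaving out 1 library gave 111 calls for miR-132 without control library 1 and 4 without transgenic library 2, and 18 for miR-212 without transgenic library 1. The difference between the lines, tested with limma as the miR-132 effect minus the miR-212 effect, was called for 0 of 4197 joined genes (0.0%) with a smallest adjusted p of 0.971, while 175 genes (4.17%) had an unadjusted p under 0.05. For this difference an edgeR fit of both tables called 5 genes, and the limma fit called 30 without control library 1 of the miR-132 table. Genes named below are therefore described by their libraries, and none of them passed the adjusted threshold with all libraries.

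A gene was counted as higher or lower in a line when every transgenic library lay above or below every control library in CPM scaled by the trimmed mean of M values (TMM). By this rule 620 of the 4197 joined genes were higher with miR-132 (14.8%) and 791 lower (18.8%), and 231 were higher with miR-212 (5.5%) and 240 lower (5.72%). These shares differ with the number of libraries a group, since 2 libraries separate from 2 more easily than 3 from 3. In both lines together, 31 genes were higher (0.739%), 51 were lower (1.22%) and 63 went opposite ways (1.5%). The 51 genes lower in both are 6.45% of those lower with miR-132, beside 5.72% of all joined genes, and 21.2% of those lower with miR-212, beside 18.8%. The 31 higher in both are 5.0% of those higher with miR-132, beside 5.5%, and 13.4% of those higher with miR-212, beside 14.8%. The counts of shared genes are thus close to the background of each table. Scaling by the plain library total turned the split of 31 higher and 51 lower into 46 higher and 40 lower. Leaving out any 1 of the 10 libraries gave 48 to 91 higher, 74 to 146 lower and 107 to 192 opposite, since fewer libraries then have to be apart.

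**Figure D1:**
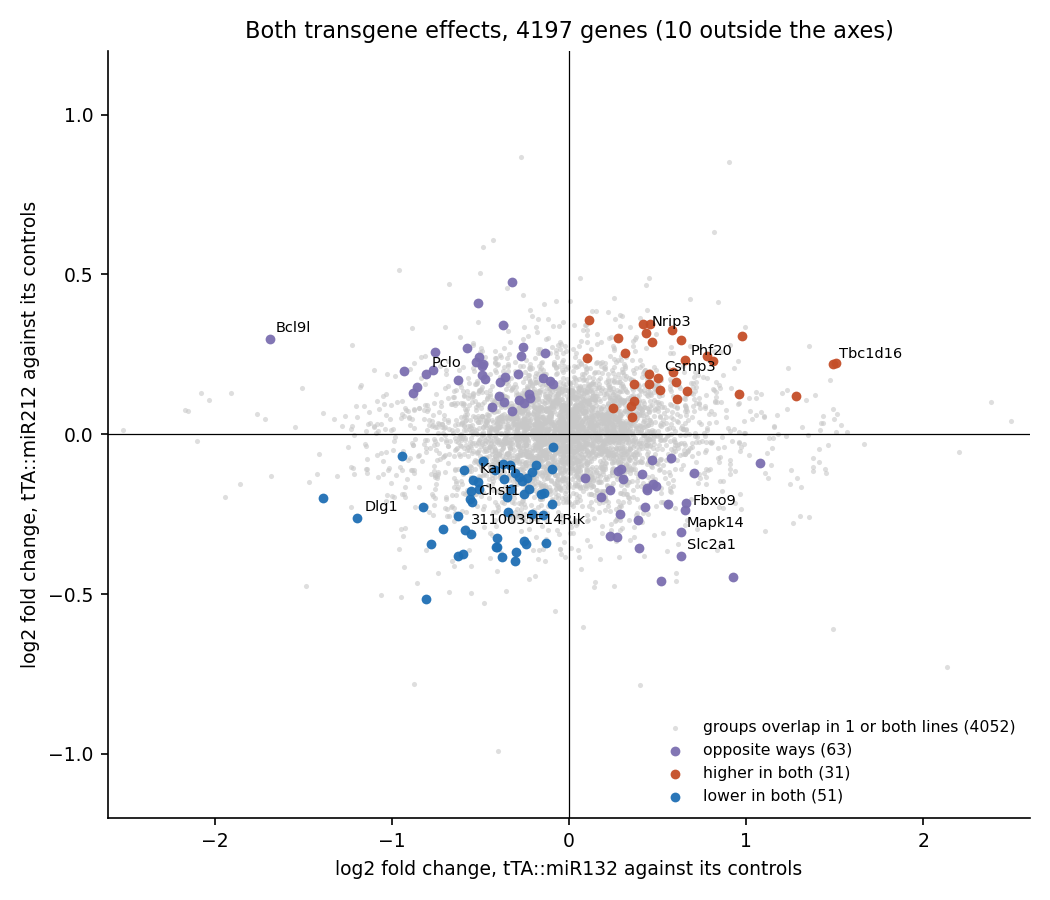
Log2 fold change with miR-212 (vertical axis) against that with miR-132 (horizontal axis) for the 4197 joined genes, coloured by whether the groups separated in both lines. The cloud has little tilt (Spearman 0.073), and the 51 genes lower in both and 31 higher in both lie in opposite corners by construction. 10 genes lie outside the axes.

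Across the joined genes the fold changes had a Spearman correlation of 0.073 and a Pearson correlation of 0.07, given as a description since genes are not independent. Of the 4197, 2195 (52.3%) had the same sign in both lines, 1130 of them below 0 in both (26.9%) and 1065 above 0 in both. The median size of a log2 fold change was 0.254 with miR-132 and 0.081 with miR-212, so the miR-132 values spread more widely, as do their errors. An unadjusted p under 0.05 was reached by 138 joined genes with miR-132 (3.29%), by 238 with miR-212 (5.67%) and by 12 in both (0.286%). Of these 12, 10 had the same direction, and 9 of those 10 were lower.

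Among the 51 genes lower in both lines, log2 fold changes ran from -1.39 to -0.09 with miR-132 (median -0.37) and from -0.52 to -0.04 with miR-212 (median -0.2). Named by the smallest larger p of the edgeR tests, 7 of them are Chst1, Dlg1, 3110035E14Rik, 6530418L21Rik, Mpped1, Nrgn and Kalrn. Several act at synapses: Dlg1 is a scaffold that anchors glutamate receptors and channels, Nrgn (neurogranin) holds calmodulin in dendritic spines, and Kalrn is an exchange factor for small GTPases in spines.

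Dlg1 measured 56.6 and 65.8 CPM in the miR-132 transgenic libraries against 104 and 176 in their controls, a log2 fold change of -1.19 ± 0.37 (SE). With miR-212 it measured 130, 114 and 108 CPM against 147, 139 and 134, a log2 fold change of -0.26 ± 0.11. The miR-212 groups are separated by a narrow gap, and those of miR-132 by a wide one. Chst1, a sulfotransferase acting on carbohydrate chains, measured 296 and 250 CPM against 357 and 441 (-0.55 ± 0.21) with miR-132. With miR-212 it measured 433, 447 and 402 against 489, 490 and 504 (-0.21 ± 0.08), where the 3 controls lie close together above all transgenic libraries. Nrgn is the gene of these 7 whose log2 fold change was smaller with miR-132 than with miR-212. It measured 1261 and 1361 CPM against 1597 and 1535 with miR-132 (-0.26 ± 0.13), and 989, 804 and 819 against 1041, 1105 and 1140 with miR-212 (-0.33 ± 0.08).

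Kalrn measured 114 and 136 CPM against 177 and 185 with miR-132 (-0.54 ± 0.28). With miR-212 it measured 878, 776 and 842 against 888, 933 and 935 (-0.14 ± 0.07), and the transgenic library 1 nearly reached the lowest control. 3110035E14Rik measured 289 and 463 against 494 and 638 (-0.59 ± 0.23), and 353, 278 and 333 against 358, 375 and 454 (-0.30 ± 0.10). 6530418L21Rik had log2 fold changes of -0.82 ± 0.34 and -0.23 ± 0.10. Mpped1, a metallophosphoesterase in the list of CA1 markers, had -0.56 ± 0.25 and -0.20 ± 0.09, and its miR-212 groups came within 1 CPM of touching. Levels of a gene are not compared between the tables, which were counted on different gene models.

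The remaining genes lower in both included further postsynaptic and channel genes with small log2 fold changes. Of 32 joined glutamate receptor and postsynaptic scaffold genes, 1 was lower in both lines and 1 went opposite ways. Of 37 potassium and calcium channel genes, 2 were lower in both and 0 went opposite ways. All joined genes had 1.22% lower in both and 1.5% opposite. Dendrin (Ddn), a postsynaptic protein, had -0.22 with miR-132 and -0.17 with miR-212, and Itpka, a spine kinase of inositol trisphosphate, had -0.15 and -0.25. The calmodulin-binding protein Pcp4 had -0.41 and -0.35, the calcium channel subunit Cacna1a -0.37 and -0.09, and the Argonaute gene Eif2c3 -1.39 and -0.20. Hipk4, a kinase, had the lowest miR-212 value of the 51, with -0.81 and -0.52.

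**Figure D2:**
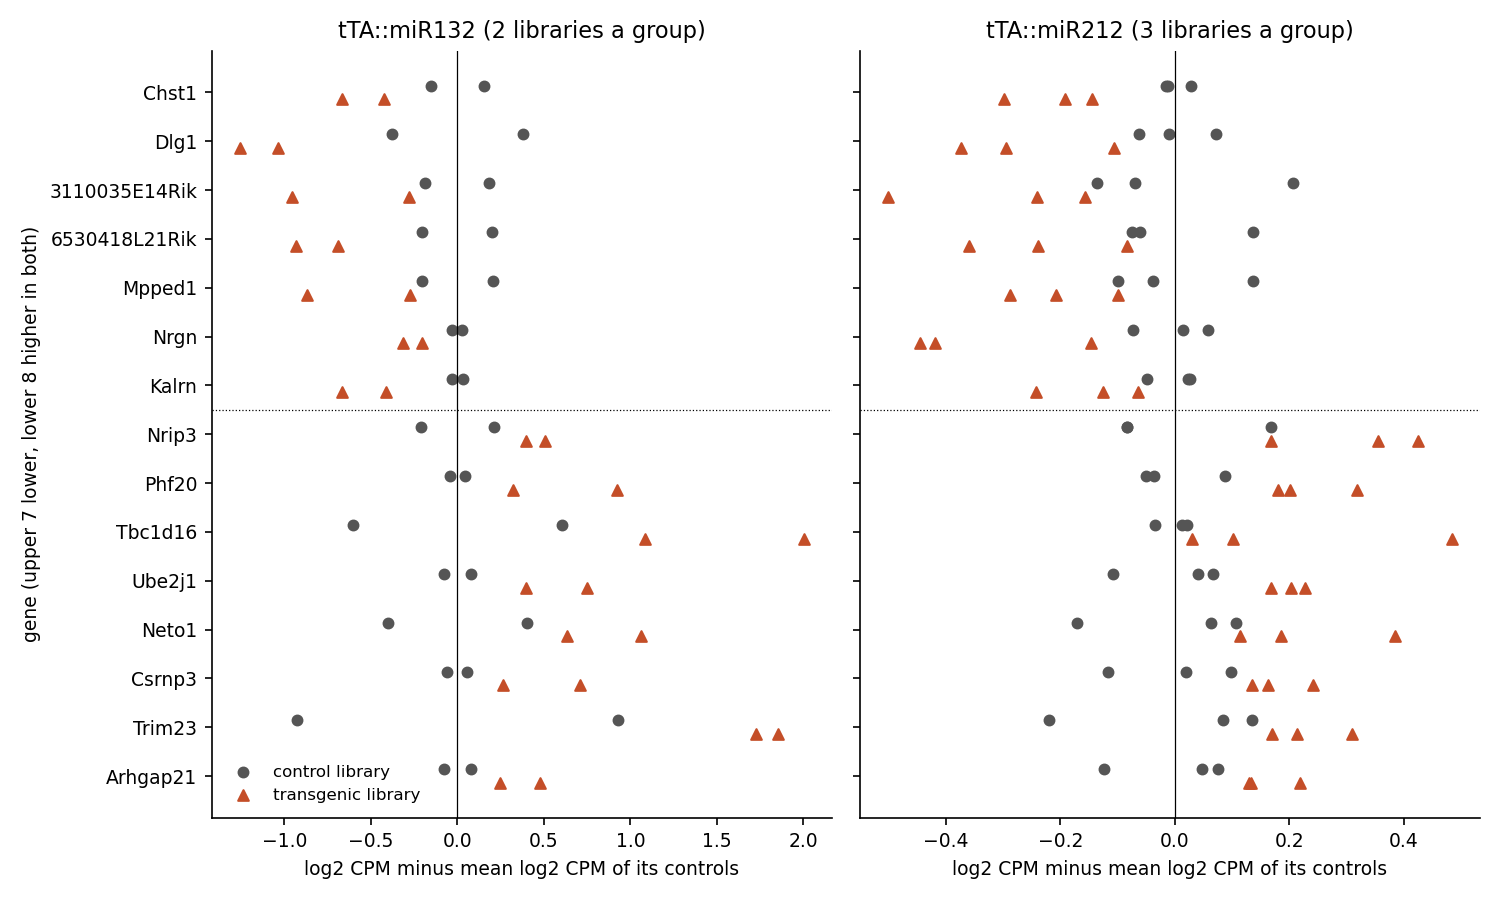
Log2 CPM of each library minus the mean of its control group for 7 named genes lower in both lines and the 8 higher in both, with the miR-132 line on the left (2 libraries a group) and the miR-212 line on the right (3 a group). Circles are controls and triangles transgenic libraries. The triangles lie on one side of the circles in every gene by the rule, and the horizontal axes differ in scale. Nrgn is the plotted gene with the larger log2 fold change with miR-212 (-0.33 against -0.26).

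Among the 31 genes higher in both lines, log2 fold changes ran from 0.10 to 1.51 with miR-132 (median 0.5) and from 0.05 to 0.36 with miR-212 (median 0.22). The 8 named by the same order were Nrip3, Phf20, Tbc1d16, Ube2j1, Neto1, Csrnp3, Trim23 and Arhgap21. Their known roles are mixed: Neto1 is an auxiliary subunit of kainate receptors, Phf20 belongs to a histone acetyltransferase complex, Ube2j1 and Trim23 act in ubiquitin conjugation, and Tbc1d16 and Arhgap21 switch off small GTPases.

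Nrip3 measured 461 and 497 CPM in the miR-132 transgenic libraries against 405 and 303 (0.43 ± 0.20), and 268, 320 and 305 against 225, 268 and 225 with miR-212 (0.32 ± 0.09). Control library 2 of miR-212 lies just under transgenic library 1, and the other libraries are well apart. Phf20 measured 188 and 124 CPM against 96.3 and 102 (0.65 ± 0.32), and 129, 131 and 142 against 111, 121 and 110 (0.23 ± 0.11). Tbc1d16 measured 47.2 and 89.0 CPM against 33.8 and 14.6 (1.49 ± 0.59) and 160, 168 and 219 against 158, 159 and 153 (0.22 ± 0.12). Its miR-212 value rests mostly on transgenic library 3. Ube2j1 measured 204 and 160 CPM against 128 and 115 with miR-132 (0.58 ± 0.28), and 119, 122 and 124 against 98.3, 111 and 109 with miR-212 (0.20 ± 0.11). Neto1 measured 103 and 139 against 87.8 and 50.4 (0.81 ± 0.39), and 96.7, 92.1 and 111 against 75.6, 88.9 and 91.6 (0.23 ± 0.13). Csrnp3 had log2 fold changes of 0.50 ± 0.30 and 0.18 ± 0.10, Trim23 of 1.51 ± 0.84 and 0.22 ± 0.14, and Arhgap21 of 0.37 ± 0.23 and 0.16 ± 0.08. Gfap, the intermediate filament of astrocytes, was also among the 31, with 0.11 and 0.36, as was the Ras exchange factor Sos1 with 0.46 and 0.35.

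The genes with an unadjusted p under 0.05 in both lines, picked out after their values were seen, were Car4 (higher in both) and, lower in both, Chst1, Dlg1, 3110035E14Rik, 6530418L21Rik, Mpped1, Nos1ap, C1ql3, Plcxd2 and Gpr26. Car4, a membrane-bound carbonic anhydrase, measured 169 and 111 CPM against 91.6 and 67.2 with miR-132 (0.82 ± 0.35), and 59.8, 92.8 and 81.7 against 60.2, 49.5 and 42.0 with miR-212 (0.63 ± 0.19). Its miR-212 groups overlap at transgenic library 1. C1ql3, a secreted synaptic organizer, measured 267 and 295 CPM against 414 and 469 (-0.65 ± 0.19), and 120, 107 and 99.1 against 133, 118 and 143 (-0.27 ± 0.12). Nos1ap, an adaptor of neuronal nitric oxide synthase, had -0.92 ± 0.37 and -0.29 ± 0.11. Gpr26, an orphan receptor with the 8mer site printed above, measured 9.34 and 11.5 CPM against 34.8 and 45.2 (-1.94 ± 0.72), and 499, 406 and 471 against 480, 521 and 576 (-0.20 ± 0.09). The miR-132 groups of Gpr26 are far apart at a low level, and its miR-212 groups overlap. The 2 genes of the 12 with opposite directions were Pclo and Ppp1r13b, both lower with miR-132 and higher with miR-212.

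Of the 63 genes that separated in opposite directions, 28 were higher with miR-132 and lower with miR-212, and 35 the reverse. Pclo (piccolo, a scaffold of the presynaptic active zone) measured 148 and 195 CPM in the miR-132 transgenic libraries against 269 and 329 (-0.81 ± 0.25). With miR-212 it measured 615, 596 and 732 against 555, 561 and 588 (0.19 ± 0.08). Slc2a1, the glucose transporter of brain endothelium and glia, went the other way, with 189 and 134 CPM against 126 and 82.2 (0.63 ± 0.33) and 114, 101 and 128 against 139, 159 and 148 (-0.38 ± 0.11). Mapk14, the stress-activated kinase p38 alpha, measured 169 and 145 CPM against 84.4 and 118 (0.63 ± 0.31), and 124, 118 and 118 against 162, 142 and 141 (-0.31 ± 0.11). Fbxo9, an F-box protein of ubiquitin ligases, measured 304 and 246 CPM against 183 and 167 (0.66 ± 0.24), and 82.1, 81.3 and 85.0 against 107, 85.1 and 100 (-0.24 ± 0.12). Srp68, a protein of the signal recognition particle, measured 27.2 and 54.4 CPM against 76.4 and 79.2 (-0.93 ± 0.48), and 99.7, 113 and 108 against 88.8, 98.2 and 93.2 (0.20 ± 0.11). Bcl9l, a coactivator of Wnt signalling, had -1.69 ± 0.79 and 0.30 ± 0.12, and control library 2 of miR-132 carried its miR-132 value with 65.1 CPM against 12.4 to 17.2 in the other 3 libraries. The difference between the lines had an adjusted p of 0.971 in limma for each of these 6 genes.

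Counting genes that separated with an unadjusted p under 0.05 in one line and overlapped in the other, 123 genes stood out with miR-132 (34 higher, 89 lower) and 107 with miR-212 (52 higher, 55 lower). Overlap in the other line is the usual state. Of the 4197 joined genes, the groups of 3726 overlapped with miR-212 and those of 2786 with miR-132. The 123 and 107 come from 138 and 238 joined genes with an unadjusted edgeR p under 0.05. The difference between the lines reached an unadjusted p under 0.05 in limma for 58 of the 123 and 5 of the 107, beside 4.17% of all joined genes, and an adjusted p under 0.05 for 0 of either. Both groups were chosen on values that enter this difference, so these counts describe them. So no gene is shown to respond to one transgene and not to the other. The counts depended on single libraries: the 123 became 828 without control library 1 and 26 without transgenic library 1 of the miR-132 table. The 107 became 27, 54, 68 and 65 when control library 1, control library 2, transgenic library 1 and transgenic library 2 of the miR-132 table were left out in turn, 71 without control library 3 of the miR-212 table and 251 without its transgenic library 1.

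The 6 genes named from those that separated with miR-132 and overlapped with miR-212 were Pdcd4, Strn4, Mtap7d1, Zfp512, Jmjd1c and Ssh2. Pdcd4, an inhibitor of translation initiation, measured 65.4 and 71.8 CPM against 167 and 148 with miR-132 (-1.2 ± 0.32), and 74.4, 85.7 and 99.7 against 83.6, 88.2 and 79.4 with miR-212 (0.05 ± 0.13). Strn4, a striatin-family subunit of phosphatase 2A complexes, measured 161 and 179 CPM against 298 and 377 (-0.99 ± 0.23), and 344, 309 and 293 against 338, 318 and 302 (-0.02 ± 0.08). Mtap7d1, a microtubule-associated protein, measured 79.8 and 99.7 CPM against 170 and 190 (-1.0 ± 0.30), and 555, 559 and 592 against 511, 558 and 534 (0.09 ± 0.07). In each of these genes the gap between the miR-132 groups is wider than the spread within either, and the miR-212 groups overlap. Higher with miR-132 were Zfp512, a zinc finger protein, with 1.29 ± 0.42 against -0.14 ± 0.13 for miR-212, and Jmjd1c, a relative of histone demethylases, with 1.31 ± 0.47 against -0.16 ± 0.11. Ssh2, a phosphatase of cofilin, had 152 and 56 counts in the transgenic libraries and 0 in both controls, so its fitted fold is not given.

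The 6 genes named from those that separated with miR-212 and overlapped with miR-132 were Mxd4, Urm1, Vim, Kctd13, Mpp3 and Cbfa2t2. Mxd4 and Urm1 were lower with miR-212 (-0.26 ± 0.10 and -0.31 ± 0.19), and their large differences between the lines rest on control library 2 of miR-132, which had 0 counts of either. Vim, an intermediate filament of glia and vessels, was higher with miR-212, at 63.7, 66.5 and 84.3 CPM against 55.8, 58.0 and 41.2 (0.47 ± 0.18). With miR-132 it measured 52.7 and 83.8 against 70.7 and 148 (-0.68 ± 0.44), where the groups overlap. Kctd13, an adaptor of Cullin-3 ubiquitin ligases, measured 167, 176 and 161 CPM against 187, 199 and 205 with miR-212 (-0.23 ± 0.09), and had 0.56 ± 0.42 with miR-132. Mpp3, a membrane scaffold, measured 69.0, 72.3 and 72.3 against 82.9, 82.7 and 94.7 (-0.28 ± 0.12), and had 0.65 ± 0.52. Cbfa2t2, a transcriptional corepressor, had -0.30 ± 0.15 with miR-212 and 0.72 ± 0.49 with miR-132.

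Genes that earlier results of these data name in 1 line were then read in the other. Camk2n1, an inhibitor of CaMKII, measured 846 and 836 CPM against 1525 and 1725 with miR-132 (-0.95 ± 0.14, edgeR adjusted p = 0.187). With miR-212 it measured 1951, 1112 and 1140 against 1647, 1897 and 2430 (-0.51 ± 0.31), so transgenic libraries 2 and 3 lay below all controls and library 1, the one with high immediate early genes, did not. The part of that library in the overlap was not tested. Ptprn2, a membrane protein of dense-core vesicles, measured 219, 236 and 250 CPM against 295, 336 and 405 with miR-212 (-0.55 ± 0.11, edgeR adjusted p = 0.415), and 178 and 165 against 186 and 176 with miR-132 (-0.08 ± 0.26). Its miR-132 groups overlap. Lrrn2 had 0.49 ± 0.10 with miR-212 and 0.06 ± 0.26 with miR-132, the kinase Sgk1 had -0.60 ± 0.16 and 0.08 ± 0.30, and Nnat (neuronatin) had 0.12 ± 0.15 and 0.77 ± 0.19. Enpp2, an enzyme abundant in choroid plexus, had -0.62 ± 0.15 with miR-132 and -0.01 ± 0.60 with miR-212. Choroid plexus markers summed to 4250 and 2976 CPM in the miR-132 transgenic libraries against 5383 and 4105 in their controls, and their part in the Enpp2 value was not tested.

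Taking all joined genes with an unadjusted p under 0.05 in one line and reading them in the other, the share that separated in the same direction exceeded the background by most for genes lower with miR-212. Of 133 such genes, 40 were lower in every miR-132 transgenic library (30.1%, beside 18.8% of all joined genes), 13 were higher in every one, and the median miR-132 log2 fold change was -0.15, beside -0.03. The match depended on a library: without transgenic library 2 of miR-212, 113 genes were chosen and 24 of them were lower with miR-132 (21.2%, beside 18.8%). That is the library with low choroid plexus and high thalamus markers, and the part of these markers was not tested. The other miR-212 libraries left out in turn gave 27.4% to 32.5%. For the 105 genes higher with miR-212, 18 were higher with miR-132 (17.1%, beside 14.8%). In the opposite reading, 6 of the 100 genes lower with miR-132 were lower with miR-212 (6.0%, beside 5.72%), and 1 of the 38 higher with miR-132 was higher with miR-212 (2.63%, beside 5.5%). By sign alone, 63.2% of the genes lower with miR-212 were below 0 with miR-132 (beside 52.9%). This share was 52.2% without transgenic library 2 of miR-212. Of the 38 genes higher with miR-132, 24 were above 0 with miR-212 (63.2%, beside 51.3%). With the miR-212 libraries left out in turn, this share ran from 52.6% (without transgenic library 3, beside 50.2%) to 63.2%.

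**Figure D3:**
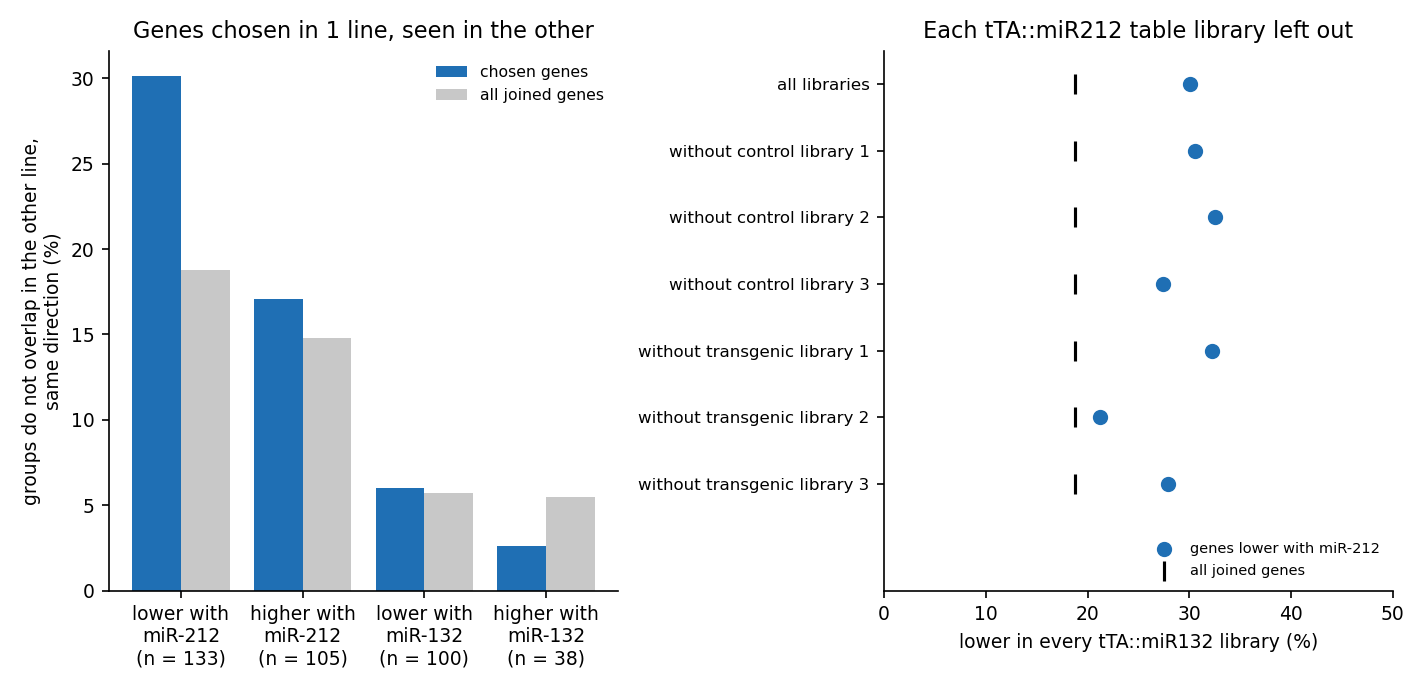
Percent of genes that separate in the same direction in the other line, for genes with an unadjusted p under 0.05 in one line beside all joined genes (left), and for the genes lower with miR-212 with each miR-212 library left out (right). The share of 30.1% for genes lower with miR-212 falls to 21.2% without transgenic library 2, beside 18.8% of all joined genes.

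Pathway lists were read by how many members had a log2 fold change below 0 in both lines, beside 26.9% of all joined genes. The list of CaMKII, its inhibitors and calmodulin-binding genes, which decode calcium at synapses, leaned most to lower values among lists of 6 or more joined members, with 13 of 20 below 0 in both lines (65.0%). Its median log2 fold change was -0.20 with miR-132 and -0.10 with miR-212, beside medians of -0.03 and 0.00 over all joined genes. Without overlap, 8 of its members were lower and 0 higher with miR-132, and 3 were lower and 1 higher with miR-212. The shares of all joined genes to read these and the counts of the other lists against are 18.8% lower and 14.8% higher with miR-132, and 5.72% lower and 5.5% higher with miR-212. Nrgn and Pcp4 were lower in both. Camk2a had -0.24 ± 0.15 and -0.07 ± 0.05, while Camk4 had -0.57 and 0.08. Across other scalings and with each library left out, 10 to 14 of the 20 were below 0 in both. The miR-132 median was -0.05 without control library 2 and -0.10 without transgenic library 2 of that line.

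Immediate early genes, which neuronal activity induces, had 11 of 18 below 0 in both lines (61.1%) and medians of -0.22 and -0.18. The miR-132 median became 0.11 without control library 2 of miR-132, and the miR-212 median 0.08 without transgenic library 2 of miR-212. The summed genes measured 4109, 1756 and 1902 CPM in miR-212 transgenic libraries 1, 2 and 3 against 2791, 3021 and 2781 in the controls. Without transgenic library 1 of miR-212 the miR-212 median became -0.68, and 12 of the 18 were below 0 in both lines. None of the 18 separated with miR-212, and the count was 4 of 18 without transgenic library 2 of miR-212, 7 without its transgenic library 3 and 5 without control library 2 of miR-132. Fos measured 63.7 and 48.6 CPM against 26.1 and 33.9 with miR-132 (0.91 ± 0.52), and had -0.08 ± 0.95 with miR-212.

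Synaptic vesicle and release genes had 23 of 49 below 0 in both (46.9%), with medians of -0.11 and -0.05. With miR-132, 16 separated lower and 3 higher. With miR-212, 3 separated lower and 3 higher, near the 5.72% and 5.5% of all joined genes, and 0 were lower in both, beside 1.22%. The miR-132 median was -0.06 without control library 1 of that line. Syt7, a calcium sensor of release, had -0.45 ± 0.23 and -0.20 ± 0.10, and the vesicle SNARE Vamp1 had -0.81 ± 0.33 and -0.22 ± 0.12. Potassium and calcium channel genes had 15 of 37 below 0 in both (40.5%), with a miR-132 median of -0.13 that became 0.02 without control library 1 of that line, 11 lower and 4 higher with miR-132, 3 lower and 0 higher with miR-212, and 2 lower in both, Cacna1a among them. Glutamate receptors and postsynaptic scaffolds had 11 of 32 (34.4%), with Dlg1 lower in both. GABA receptor and synapse genes had 2 of 15 (13.3%). Gabra2, a GABA-A receptor subunit, had -0.48 ± 0.40 and 0.59 ± 0.18.

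Other lists leaned more in one line, and the difference between the lines was not tested for lists. Oligodendrocyte and myelin markers had a median of 0.23 with miR-132, where 7 of 14 separated higher and 2 lower (beside 14.8% and 18.8% of all joined genes), and of 0.01 with miR-212, where 1 separated higher and 1 lower (beside 5.5% and 5.72%). The miR-132 median was 0.14 without transgenic library 1 of that line. Oxidative phosphorylation genes had medians of 0.10 and -0.01 over 39 members, and the miR-132 median became -0.06 without transgenic library 1 and 0.22 without transgenic library 2 of that line. The 11 clock genes had medians of -0.27 and -0.07. Without control library 2 of miR-132 the first became 0.10, and the members below 0 in both went from 5 to 2. The clock repressors Bhlhe40 (-0.55 ± 0.36 and -0.41 ± 0.12) and Cry2 (-0.66 ± 0.31 and -0.19 ± 0.10) had values below 0 in both. The adjusted threshold was passed by 0 members of every list in either line.

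Summed markers of CA1 and of dentate granule cells were lower in the transgenic libraries, and those of CA2 and CA3 were not lower throughout. CA1 markers summed to 890 and 924 CPM in the miR-132 transgenic libraries against 1041 and 1122 in their controls, and to 1128, 1123 and 1212 against 1237, 1271 and 1257 with miR-212. Dentate granule cell markers summed to 973 and 945 CPM against 1069 and 1194, and to 506, 534 and 501 against 575, 607 and 562. Both sums are lower in every transgenic library of both lines. They hold unlike sets of genes: 9 CA1 and 14 dentate markers with miR-132, and 7 and 6 with miR-212. Single members were less uniform: with miR-132, 3 of 6 joined CA1 members and 4 of 6 dentate members were below 0. With miR-212 these counts were 6 and 5, and 3 of 6 in each list were below 0 in both lines (50.0%, beside 26.9%). The dentate miR-132 median of -0.25 became 0.08 without control library 2 of that line. CA2 and CA3 markers summed to 969 and 916 CPM against 1045 and 1245 with miR-132, and to 676, 773 and 655 against 669, 708 and 725 with miR-212, where the groups overlap. Interneuron markers summed to 3102 and 2813 CPM against 2904 and 2769 with miR-132. With miR-212 they summed to 1792, 1850 and 1946 against 1747, 1801 and 1836, and the groups overlap in both lines. Of 9 joined interneuron members, 6 were above 0 in both lines, beside 1065 of all 4197 joined genes, and 0 were below 0 in both. With miR-132, 2 of the 9 were below 0, and 5 without control library 2 of that line. In bulk tissue, fewer cells of a type and less RNA per cell cannot be told apart, and the part of these markers in the synaptic lists was not tested.

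**Figure D4:**
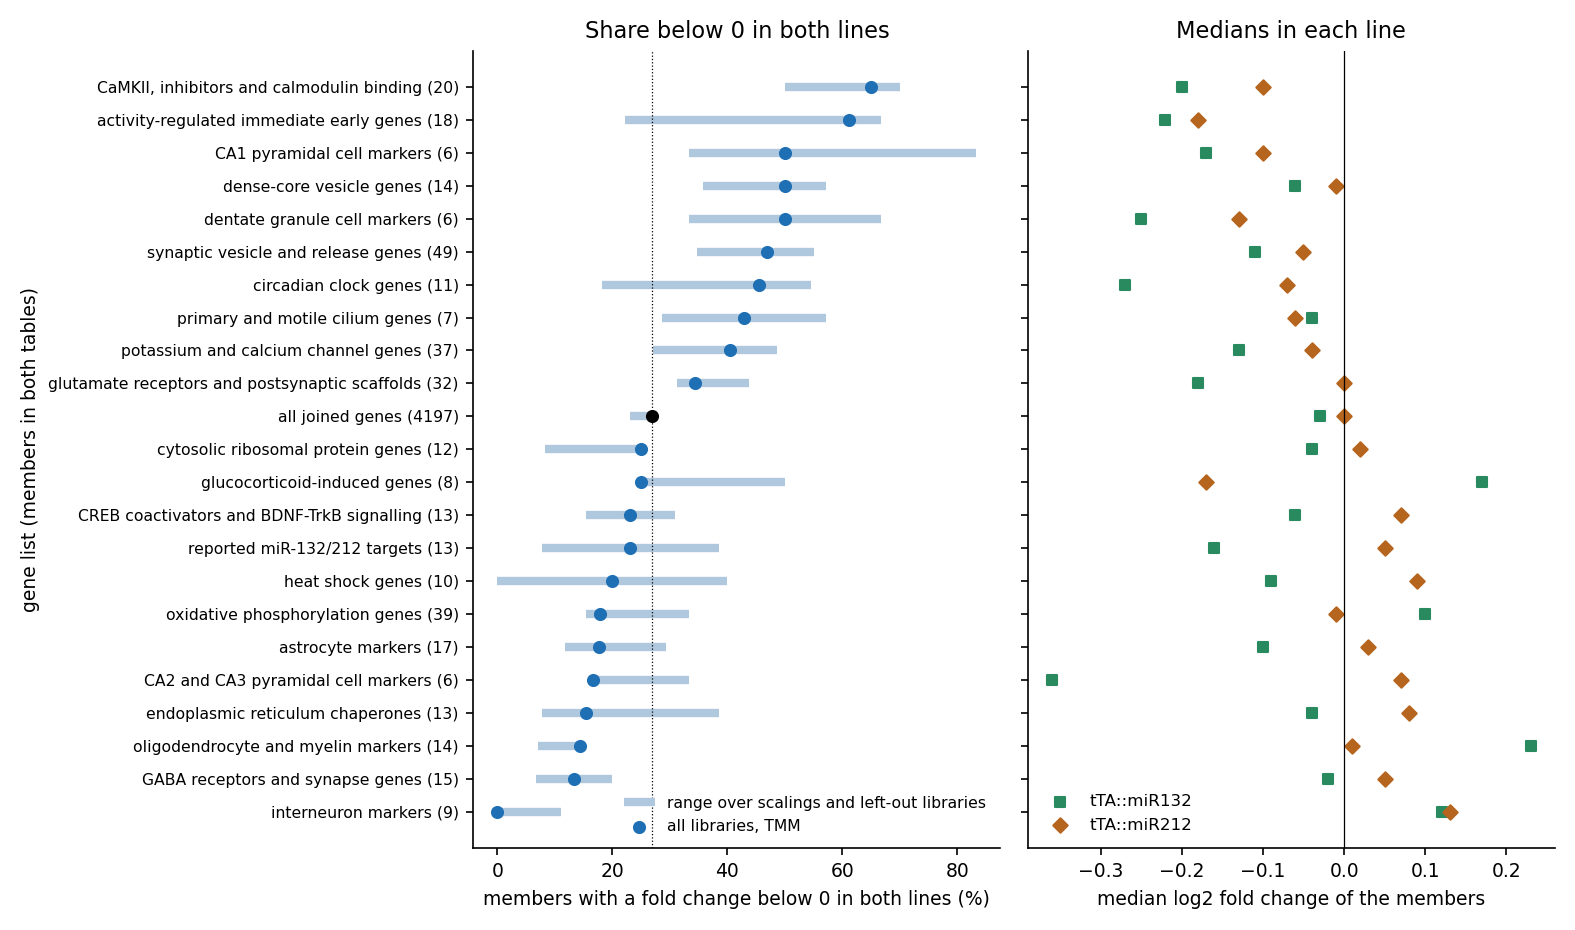
Left, percent of the joined members of each list with log2 fold changes below 0 in both lines; dots are the values with all libraries and TMM scaling, bars span the other scalings and left-out libraries, and the dotted line is the 26.9% of all joined genes. Right, median log2 fold change of each list with miR-132 (squares) and miR-212 (diamonds). The bar of the CaMKII and calmodulin list lies above the dotted line, as do those of the synaptic vesicle, dense-core vesicle, glutamate, channel, cilium, CA1 and dentate lists, and the bar of the immediate early genes crosses it.

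Targets reported for miR-132 and miR-212 did not share a direction. Of 31 listed, 13 were joined, with medians of -0.16 and 0.05, and 3 of the 13 were below 0 in both lines. Without overlap, 4 were lower with miR-132, and with miR-212 0 were lower and 1 was higher, beside 18.8% of all joined genes lower with miR-132 and 5.72% lower and 5.5% higher with miR-212. Mapt, the microtubule protein tau, measured 441 and 496 CPM against 591 and 720 with miR-132 (-0.48 ± 0.18), and 922, 907 and 924 against 875, 896 and 977 with miR-212 (0.00 ± 0.06). Its miR-132 groups are apart, as are those of Sox5, Arhgap32 and Btg2, and the miR-212 groups of all 4 overlap. Sox5, a transcription factor with the 8mer printed above, measured 14.9 and 23.2 CPM against 33.5 and 37.1 (-0.89 ± 0.68), and 59.1, 60.8 and 72.3 against 47.0, 44.1 and 61.9 (0.33 ± 0.19). Ptbp2, a splicing repressor of neurons, was the target that separated higher with miR-212, at 89.0, 97.9 and 88.4 CPM against 84.4, 66.5 and 86.3 (0.21 ± 0.13), and it had -0.26 ± 0.24 with miR-132. Ache, acetylcholinesterase, measured 86.7, 130 and 90.4 CPM against 77.8, 88.9 and 69.5 with miR-212 (0.39 ± 0.16), where the groups overlap at transgenic library 1, and had 0.13 ± 0.36 with miR-132. The GTPase-activating protein Arhgap32 had -0.44 ± 0.37 and -0.11 ± 0.20, the acetyltransferase Ep300 0.42 ± 0.37 and 0.10 ± 0.11, and the nuclear receptor Nr4a2 -0.02 ± 0.28 and -0.02 ± 0.18.

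Genes whose 3′ UTR holds a seed site were no lower than the others in either line. Sites were searched on the sense strand as GACTGTTA (8mer), GACTGTT and ACTGTTA (the 7-base sites contained in it), in the longest annotated 3′ UTR of each gene. Of 4127 joined genes with a 3′ UTR, 980 held a site (23.7%) and 143 an 8mer (3.46%), beside 16.3% and 2.14% of all 19915 annotated genes. A site was held by 8 of 50 genes lower in both lines (16.0%), by 7 of 31 higher in both (22.6%) and by 13 of 62 opposite genes (21.0%). Median 3′ UTR lengths were 1352 bases for the genes lower in both, 1341 for those higher in both and 1684 for all joined genes. The median log2 fold change with miR-132 was -0.019 for genes with an 8mer and -0.027 for genes with no site, and with miR-212 it was 0.002 for both. Lower without overlap were 16.1% of 8mer genes and 19.4% of genes without a site with miR-132, and 4.9% and 5.91% with miR-212. Psmc3, a proteasome subunit with the 8mer printed above, was higher in both lines (0.45 and 0.19), and Eif2c3 was lower in both. A match of letters does not show that a site is bound.

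**Figure D5:**
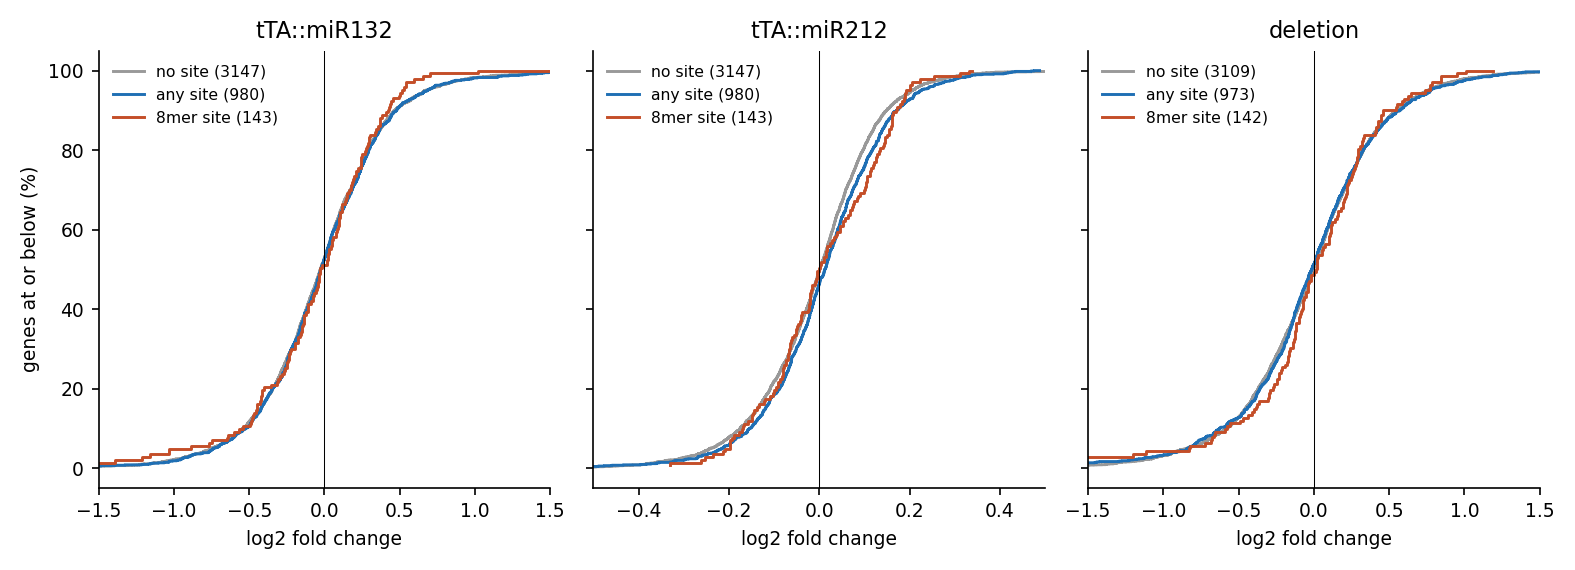
Cumulative percent of joined genes by log2 fold change in the miR-132, miR-212 and deletion comparisons, for genes with no seed site, with any site and with an 8mer in the 3′ UTR. The curves lie close together in all 3 panels, with medians for 8mer genes of -0.019, 0.002 and 0.018.

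The deletion removes both microRNAs, and its libraries took no part in choosing the shared genes. Of the 51 genes lower in both transgenic lines, 30 had a log2 fold change above 0 in the deletion (58.8%, beside 49.3% of the 4152 joined genes tested there) with a median of 0.10, beside -0.01. Of them 7 were higher without overlap (13.7%, beside 16.0%) and 7 were lower (13.7%, beside 15.6%). Of the 31 genes higher in both, 15 were above 0 in the deletion (48.4%), the median was -0.10, and without overlap 8 were higher (25.8%, beside 16.0%) and 3 lower (9.68%, beside 15.6%). The median of the genes lower in both exceeded that of the genes higher in both by 0.19, and this became -0.06 without deletion library 1 and 0.45 without deletion library 2.

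In the libraries of all 3 comparisons, 7 of the shared genes were lower in both lines and higher in the deletion: Nrgn, Kalrn, Igfbp4, Grasp, Srrm4, Sbno1 and D11Bwg0517e. Kalrn measured 226 and 211 CPM in the deletion libraries against 162 and 168 in their controls (0.41 ± 0.24), so its groups are apart and each is tight. Nrgn measured 3363 and 1513 CPM against 1398 and 1503 (0.75 ± 0.36), and the value rests on deletion library 1. The reverse, higher in both lines and lower in the deletion, was seen for Sin3a (-0.88), Arhgdia (-0.49) and D19Wsu162e (-1.38). Of the genes lower in both lines, 7 were lower in the deletion too. Dlg1 was one of them, with 51.6 and 24.8 CPM in the deletion against 64.6 and 81.0 (-0.93 ± 0.54). The other 6 genes lower in all 3 were Asrgl1 (-0.26 in the deletion), Carm1 (-0.51), Grinl1a (-0.35), Scara3 (-0.35), Sesn1 (-0.45) and Sh2d5 (-0.45). Higher in all 3 were 8 genes: Csrnp3 (0.10), Tbc1d16 (0.70), Cherp (1.02), Gbf1 (1.09), Golga3 (0.80), Psmc3 (0.31), Tmem66 (0.07) and Ulk1 (0.63). So 15 of the shared genes separated in the same direction in the deletion and 10 in the opposite one. Of all joined genes, 16.0% were higher and 15.6% lower in the deletion without overlap. An unadjusted edgeR p under 0.05 in the deletion was reached by 0 of the 51 genes lower in both lines and 2 of the 31 higher in both. Among the 4152 joined genes tested there it was reached by 47.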

How the data were processed

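Polyadenylated hippocampal RNA was read on an Illumina Genome Analyzer II, as the series design text states. Reads were aligned to mm9 with Bowtie 0.12.7, per the submitters' processing notes, and Cufflinks 1.2 is named for abundances that were not used. Which tool counted the reads, and on which annotation release, is not given in the sources used here. Deposited values used are whole-number read counts per RefSeq gene (miR-132 and deletion tables) or Ensembl transcript (miR-212 table), per the file headers. The 14 columns of normalized library values stayed unused, and a repeated header line was dropped. Totals were 8301385 to 14772907 counts a library in the miR-132 table, 3140536 to 3739682 in the miR-212 table before 1 transcript per gene was kept, and 8190899 to 9702801 in the deletion table. The tables list only part of the genes, so these are not full depths.

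Count columns name a group and a number, and libraries were tied to groups and to no single sample. For miR-212 the transcript with the highest mean count stood for its gene symbol (2555 symbols had more than 1 transcript). Each table was fitted in R 4.3.3 with edgeR 4.0.16 (quasi-likelihood, robust, TMM, filterByExpr, Benjamini-Hochberg over the table, threshold 0.05). The difference was fitted on the joined genes with limma 3.58.1 (voom, library weights estimated per table). DESeq2 1.42.0 was an alternative, beside other scalings, filters, rows per gene, tests of the difference and left-out libraries. The fits were tested on simulated counts. Fold changes are log2, with standard errors from the fits.

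Named genes had a mean count of at least 30 in both tables. They were the 8 higher in both, 8 lower in both and 6 opposite genes with the smallest larger p of the edgeR tests, 6 genes separated in each line alone with the smallest p of the difference, up to 3 members of each list, all joined reported targets, and 9 genes that earlier results name in 1 line. Some genes that this rule names are not reported here. Members and lists were chosen with earlier results of these data known. Seed sites were searched in GENCODE vM1 3′ UTRs (mm9), in which 76.0% of 11172 matched transcripts of the miR-212 table shared their gene's span. Mature microRNA sequences are from RefSeq.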

Additional observations from a re-analysis of the deposited data

Results flagged for a closer look

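The 6 named genes that separated in opposite directions are singled out because every transgenic library of one line lay on one side of its controls and every transgenic library of the other line on the opposite side. The difference of the log2 fold changes, miR-132 minus miR-212, was -1.01 for Pclo, -1.6 for Bcl9l, 0.98 for Mapk14, 0.9 for Fbxo9, 1.04 for Slc2a1 and -1.31 for Srp68. The limma test of the difference gave an adjusted p of 0.971 for each. The 63 genes of this kind are 1.5% of the joined genes.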

How the results depend on the processing

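The calls at an adjusted p under 0.05 depended on the tool and on single libraries. For miR-132, 0 became 39 with DESeq2 and 0 to 111 with each library left out. For miR-212, 0 became 0 to 18 with each library left out. For the difference, 0 became 5 in an edgeR fit of both tables and 0 to 30 with each library left out. The numbers in the column names were also used as a replicate block, which gave 1 call for miR-132, 1 for miR-212 and 0 for the difference. Same-numbered libraries showed little common deviation (correlations of 0.013 for miR-132 and -0.079, 0.021 and -0.034 for miR-212). With 2 libraries a group, every miR-132 pair has the same correlation apart from its sign. These values cannot show whether libraries with the same number were handled together. With each library left out, counts of separated genes were 48 to 91 higher in both, 74 to 146 lower in both and 107 to 192 opposite; every left-out library raised them, as fewer libraries have to be apart. Genes standing out with miR-132 numbered 26 to 828 and with miR-212 27 to 251. Counting joined genes by an unadjusted edgeR p under 0.05 in both tables instead of by separation gave 1 higher, 9 lower and 2 opposite. Some of these genes overlap in the miR-212 table, so they are not a subset of the separated genes. The Spearman correlation ran from 0.023 (without miR-212 transgenic library 2) to 0.109. The deletion difference of medians ran from -0.06 to 0.45. The share of genes lower with miR-212 that were lower with miR-132 ran from 21.2% to 49.6%, where leaving out a miR-132 library also raises the background (30.0% to 42.0%). This share, the ranges of the lists and a repeat without genes at 0 in a miR-132 library (31 higher, 51 lower, 63 opposite) were chosen after seeing the data. The median SE with miR-132 (0.348) exceeded the median size of a miR-212 log2 fold change (0.081), so differences of that size were not detectable for most genes of the miR-132 table.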
